A study of Mus musculus with 119 samples.

Results

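A group of 7 cell-surface receptors for metabolites, adenosine and chemoattractants was followed through mouse macrophage RNA-sequencing libraries of 25 groups. They were *Gpr84*, *Hcar2*, *Adora2a*, *Adora2b*, *Ptafr*, *Fpr1* and *Fpr2*, 7 of the 18098 genes in the deposited table, and they were taken by gene symbol, with earlier results of these data known. All 7 passed the filter on low values, a linear value of at least 10 in enough libraries, and each was above that minimum in every library. The libraries were made from bone marrow-derived macrophages (BMDMs), which were grown from the marrow of C57BL/6(NIMR) mice and treated with lipopolysaccharide (LPS, 100 ng/ml), the bacterial ligand of TLR4.

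Wild-type (WT) BMDMs were collected without LPS and after 0.5, 1 and 2 h of LPS, with 6, 6, 6 and 4 libraries. *Map3k8* D270A/D270A BMDMs, which carry a point mutation that inactivates the kinase TPL-2, had 6 libraries at each of these times. *Elk1*-/- *Elk4*-/- BMDMs, which lack a pair of ternary complex factors (TCFs, transcription factors that ERK1/2 phosphorylate), had 4 libraries at each time. *Nfkb1* SSAA/SSAA BMDMs, whose p105 cannot be phosphorylated by IKK on its usual serines, had 6 libraries at 0, 0.5 and 1 h only. In WT BMDMs the MKK1/2 inhibitor PD0325901 (0.1 µM, given 10 min before LPS) was tested at 0.5 and 1 h with 6 libraries each, beside 3 unstimulated libraries each at 10, 40 and 70 min of inhibitor and 3 of its solvent DMSO at 10 min. The RSK inhibitor RSKi47 (2 µM, also 10 min before LPS) had 4, 3, 4 and 4 libraries at 0, 0.5, 1 and 2 h. The mutants came from mouse strains backcrossed onto C57BL/6, and the effect of the *Map3k8* and *Nfkb1* point mutations on TPL-2 or p105 could not be checked by mRNA level. The labels give no WT cultures run beside the *Elk1*-/- *Elk4*-/-, *Nfkb1* SSAA/SSAA, PD0325901 and RSKi47 libraries, and none with DMSO and LPS. For these 4 arms the treatment or genotype and the experiment therefore cannot be told apart. The sample titles also name no experiment shared by the WT and *Map3k8* libraries, which fell into replicate sets (below). The study's methods call the replicate libraries biological, but neither they nor the labels say for these libraries whether they came from separate animals or cultures, and p-values therefore measure only the spread between these samples, part of which may be technical.

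All 7 genes encode 7-transmembrane receptors that signal through heterotrimeric G proteins. GPR84 responds to medium-chain fatty acids, and HCAR2 is the receptor for niacin and the ketone body β-hydroxybutyrate. ADORA2A and ADORA2B are the adenosine receptors that couple to Gs and raise cAMP, a second messenger that restrains inflammatory output in macrophages. PTAFR is the receptor for platelet-activating factor, a phospholipid mediator. FPR1 and FPR2 recognise formylated peptides from bacteria and mitochondria, and FPR2 also binds annexin A1, serum amyloid A and lipid mediators. TLR4 engagement in macrophages activates NF-κB and, through TPL-2 released from p105, the kinases MKK1/2 and ERK1/2, which act on TCFs and on RSK.

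In the mouse genome (RefSeq, build GRCm38.p6), *Gpr84* lies at chr15:103308233-103310670, *Hcar2* at chr5:123863570-123865516, *Adora2a* at chr10:75316877-75334792, *Adora2b* at chr11:62248984-62266452 and *Ptafr* at chr4:132564067-132582683. *Fpr1* (chr17:17876471-17883939, minus strand) and *Fpr2* (chr17:17887824-17893952, plus strand) are neighbours that point away from each other, with 3884 bases between them. The annotated span of the *Fpr3* gene, on the same strand, overlaps an exon of *Fpr2*. Of the 1295 windows of 50 bases in the *Fpr2* transcript, 408 (31.5%) also occur in transcripts of *Fpr1*, *Fpr3* or *Gm5966*. The share of reads assigned to *Fpr2* is therefore uncertain. For *Fpr1* this was 1 of 1275 windows, for *Ptafr* 57 of 3588 (1.59%) and for the other 4 genes 0. An exon of *Gpr84* also overlaps the antisense gene *Gm49482*. Reads were made strand-specific, but whether the counting used the strand is not stated.

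The bases just upstream of 3 of these genes are shown because the adenosine receptor gene and the 2 formyl peptide receptor genes, which had different patterns in the mutants, differ in composition there. RefSeq promoter windows were matched for 5 of the 7 genes (*Gpr84*, *Adora2b*, *Ptafr*, *Fpr1* and *Fpr2*). Each sequence runs 5′ to 3′ on the strand of its gene and ends next to the annotated start, except that *Fpr1* is printed without its last base, which lies before the RefSeq start but in the first exon of the GENCODE annotation, and capitals mark matches to GGGCGG (a GC box) or GGAAGT (an ETS core) on either strand.
Adora2b, chr11:62248734-62248983, plus strand: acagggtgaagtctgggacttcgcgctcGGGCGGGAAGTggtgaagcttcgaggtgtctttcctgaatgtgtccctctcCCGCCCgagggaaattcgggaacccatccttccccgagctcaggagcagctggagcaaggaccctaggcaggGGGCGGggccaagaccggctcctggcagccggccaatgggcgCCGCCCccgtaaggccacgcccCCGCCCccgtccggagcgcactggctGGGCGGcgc
Fpr1, chr17:17883941-17884189, minus strand: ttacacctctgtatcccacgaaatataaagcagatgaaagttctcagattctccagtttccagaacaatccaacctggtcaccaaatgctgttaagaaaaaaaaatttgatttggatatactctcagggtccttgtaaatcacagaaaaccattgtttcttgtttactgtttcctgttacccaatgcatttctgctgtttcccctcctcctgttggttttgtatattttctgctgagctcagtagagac
Fpr2, chr17:17887574-17887823, plus strand: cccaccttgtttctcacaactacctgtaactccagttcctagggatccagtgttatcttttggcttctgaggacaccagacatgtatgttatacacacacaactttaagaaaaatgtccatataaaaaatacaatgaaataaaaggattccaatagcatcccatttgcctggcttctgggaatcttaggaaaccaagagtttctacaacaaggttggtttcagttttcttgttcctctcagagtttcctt
Of the full 250 bases before the start, 174 were G or C in *Adora2b*, against 96 in *Fpr1*, 97 in *Fpr2*, 115 in *Gpr84* and 140 in *Ptafr*. *Adora2b* held 6 GC boxes, beginning 222, 171, 99, 57, 35 and 9 bases before the start, and an ETS core beginning at 217 bases that shares 1 base with the first of them. *Ptafr* held 1 GC box at 68 bases, and *Fpr1* and *Fpr2* held neither motif. *Gpr84* held an ETS core at 62 bases and the letters GGGAATTTC, an NF-κB-like run, at 134 bases. Among 32851 promoter windows of this length, 32.7% held GGGCGG, 19.7% held GGAAGT and 0.234% held GGGAATTTC on either strand. These 3 motifs were added after the sequences had been seen. The motifs searched first were AP-1 (TGANTCA, in 6.75% of windows), CRE (TGACGTCA, 1.55%), ETS (CCGGAA, 12%), PU.1 (GAGGAAGT, 2.44%), the SRF CArG box (1.47%) and the NF-κB consensus (5%), and none of these had a match in the 5 windows. A match describes letters in a window and is not a binding site, and a window without a match says nothing about the factor.

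The deposited values were normalised and on a log scale, while the transformation behind them and the depth of each library are unknown here. The log base is not stated and was read as 2 from the values, since the linear values of the median library then add up to 21240755, near the typical read yield in the methods, and to 1642958632 with a natural logarithm. Values run from -2.40 to 19.8 over the whole table and are not per length, so each gene is compared only with itself, differences may be compressed for low genes, and folds below are 2 to the power of the log2 difference. All 8 macrophage markers measured passed the filter, from *Mertk* (9.48 to 11.01) and *Fcgr1* (11.2 to 13.02) to *Csf1r* (14.8 to 15.5) and *Lyz2* (17.5 to 18.7). The log2 of their summed linear values was 18.61 to 18.80 in WT without LPS and 18.87 to 19.00 at 2 h, and was lower than in every WT library of the same time in *Elk1*-/- *Elk4*-/- BMDMs at all 4 times (18.35 to 18.44 without LPS and 18.64 to 18.71 at 2 h) and in the *Map3k8* mutant at 2 h (18.67 to 18.86). *Lyz2* weighs most in this sum, with group means of 17.53 to 18.52, against at most 15.77 for any other marker (*Adgre1*). The sum therefore does not give the direction of each marker. The part of these markers in the receptor results was not tested. No lymphocyte or mast cell marker reached the filter on low values, and the highest library of any was 2.74 for the former (*Cd79a*) and 3.24 for the latter (*Gata2*). The log2 of the summed linear values of the lymphocyte markers ran from 2.86 to 3.52 over the *Elk1*-/- *Elk4*-/- libraries and from 2.62 to 2.91 over WT, and the part of these markers in the results was not tested. The WT and *Map3k8* D270A/D270A libraries fell into sets whose deviations from their group means went together, WT replicates 4 to 6 with mutant replicates 1 to 3 and WT replicates 7 to 9 with mutant replicates 4 to 6. The mean correlation of these deviations was 0.269 to 0.301 within a set and -0.298 to -0.266 between sets at the 4 times, and results are therefore also given within each set. The labels do not say what the sets are.

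LPS raised all 7 receptor transcripts in WT BMDMs. At 0.5 h *Gpr84* was the receptor that passed the test, at 1 h all 7 were higher than without LPS, and at 2 h all 7 had risen at least 2-fold. Tests were limma's moderated test with Benjamini-Hochberg adjustment over all genes tested (11884 in the fit of the WT, *Map3k8* D270A/D270A and *Elk1*-/- *Elk4*-/- libraries and 11971 in the fit of all libraries), two-sided, with an adjusted p under 0.05 taken as passing. The members that passed numbered 1, 7 and 7 at 0.5, 1 and 2 h, all higher, against 11.6%, 46.8% and 71.5% of all genes tested that passed in either direction. Members that passed and also differed at least 2-fold numbered 1, 5 and 7, against 0.623%, 4.14% and 11% of genes. The median log2 difference over the members was 3.21 at 2 h, against -0.02 over all genes tested. WT libraries with and without LPS did not overlap for any of the 7 receptors at 1 or 2 h, against 29.6% and 58.3% of all genes tested whose groups did not overlap, and every 1 h and 2 h call was also made within each replicate set. The second set has a single WT library at 2 h, whose spread was taken to be that of the other groups. The summed dendritic cell markers (log2 of summed linear values) were also higher with LPS in WT, 5.81 to 6.09 at 2 h against 4.41 to 4.54 without LPS, and were 5.23 to 5.82 in *Map3k8* D270A/D270A and 5.49 to 5.69 in *Elk1*-/- *Elk4*-/- libraries at 2 h. Of the 5 markers 2 were tested (*Zbtb46* and *Xcr1*), both of which were higher in WT at 1 and 2 h, and *Cd209a* had no library above 0.09. Their part in the receptor results was not tested. In bulk RNA, fewer cells of a type and less RNA per cell cannot be told apart.

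**Figure D1:**
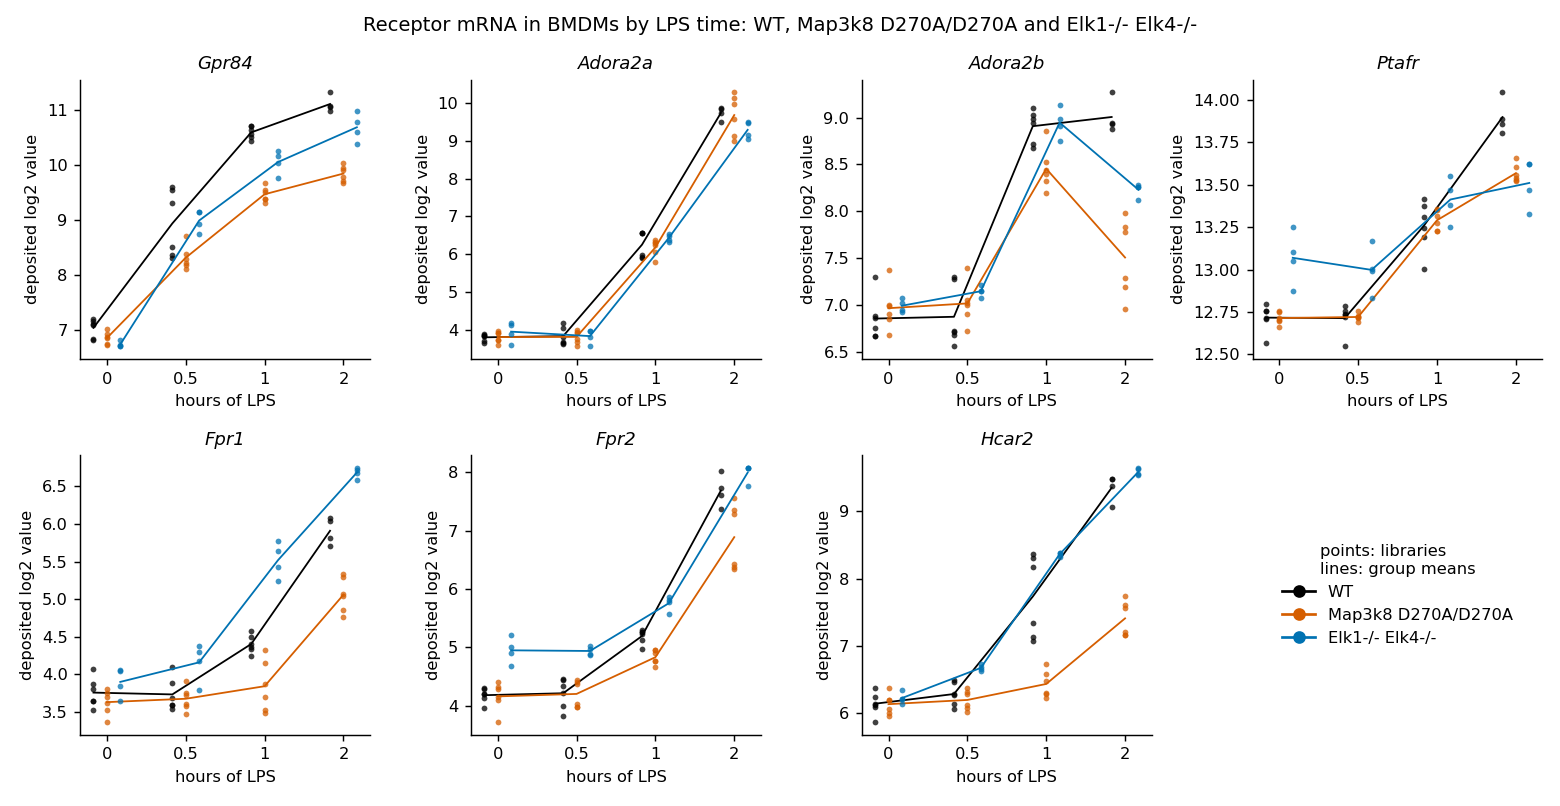
Deposited normalised log2 value (vertical axis) of each receptor without LPS and after 0.5, 1 and 2 h of LPS (horizontal axis, hours, evenly spaced and not to scale) in WT, *Map3k8* D270A/D270A and *Elk1*-/- *Elk4*-/- BMDMs; points are libraries and lines join group means. All 7 receptors rose in WT BMDMs, *Hcar2* at 2 h stayed between 7.16 and 7.74 in the *Map3k8* mutant against 9.06 to 9.48 in WT, and *Fpr1* was highest in the *Elk1*-/- *Elk4*-/- libraries.

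In *Map3k8* D270A/D270A BMDMs 6 of the 7 receptors were lower than in WT after 2 h of LPS, and none passed without LPS. Members that passed the test against WT numbered 0, 1, 4 and 6 of 7 at 0, 0.5, 1 and 2 h, every one of them lower in the mutant, against 1.44%, 1.37%, 9.79% and 27.7% of genes that passed in either direction. *Adora2a* was the receptor that did not pass at 2 h. Those at least 2-fold lower were *Gpr84* and *Hcar2* at 1 h (2 members, against 0.286% of genes) and *Gpr84*, *Adora2b* and *Hcar2* at 2 h (3 members, against 0.665%). The median difference over the members at 2 h was -0.85, against 0.01 over all genes tested. Without LPS the 7 differences ran from -0.19 to 0.11. Values given below for the second replicate set at 2 h rest on a single WT library.

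In *Elk1*-/- *Elk4*-/- BMDMs *Fpr1* was higher than in WT at 2 h, while *Gpr84*, *Adora2a*, *Adora2b* and *Ptafr* were lower. *Ptafr* and *Fpr2* were higher at 0, 0.5 and 1 h, *Fpr1* and *Hcar2* at 0.5 and 1 h, and *Fpr2* did not pass at 2 h. Members higher and lower numbered 2 and 0 without LPS, 4 and 0 at 0.5 h, 4 and 1 at 1 h, and 1 and 4 at 2 h, against 51.8%, 44.4%, 53.4% and 50.8% of genes that passed in either direction, so that passing the test was common among all genes in these comparisons. One member, *Fpr1*, was at least 2-fold higher at 1 h, against 1.53% of genes. The median over the members at 2 h was -0.39, against 0.02 over all genes. Of the 8 neutrophil markers tested, 6 were also higher in these libraries (below, beside *Fpr1* and *Fpr2*).

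*Nfkb1* SSAA/SSAA BMDMs had less *Adora2a* and *Adora2b* than WT after 1 h of LPS, and more *Gpr84* before LPS. Members higher and lower numbered 1 and 0 without LPS, 1 and 1 at 0.5 h, and 0 and 3 at 1 h, against 32%, 32.3% and 42.5% of genes. With the replicate block the higher calls in this mutant numbered 6 in place of 2, the added ones being *Ptafr* at 0, 0.5 and 1 h (adjusted p = 0.0252, 0.0324 and 0.0375) and *Hcar2* at 1 h (adjusted p = 0.04), and *Adora2b* was also called lower without LPS (-0.28, adjusted p = 0.0416 against 0.0606 without the block). The 2 that were at least 2-fold lower at 1 h, *Adora2a* and *Adora2b*, stood against 1.17% of genes. With PD0325901, *Gpr84* and *Adora2b* were the members below WT, 2 lower at 0.5 h and 2 at 1 h, against 29.4% and 35.7% of genes, and *Gpr84* alone was at least 2-fold lower at 1 h, against 0.735%. With the replicate block *Ptafr* was also called higher at 1 h (adjusted p = 0.027). With RSKi47, members higher and lower numbered 3 and 1 without LPS, 2 and 1 at 0.5 h, 0 and 2 at 1 h, and 1 and 3 at 2 h, against 53%, 48.2%, 52.8% and 52.1% of genes, and *Adora2b* was at least 2-fold lower at 2 h, against 2%. All of these comparisons, and those of the other mutants, share the WT libraries as controls.

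**Figure D2:**
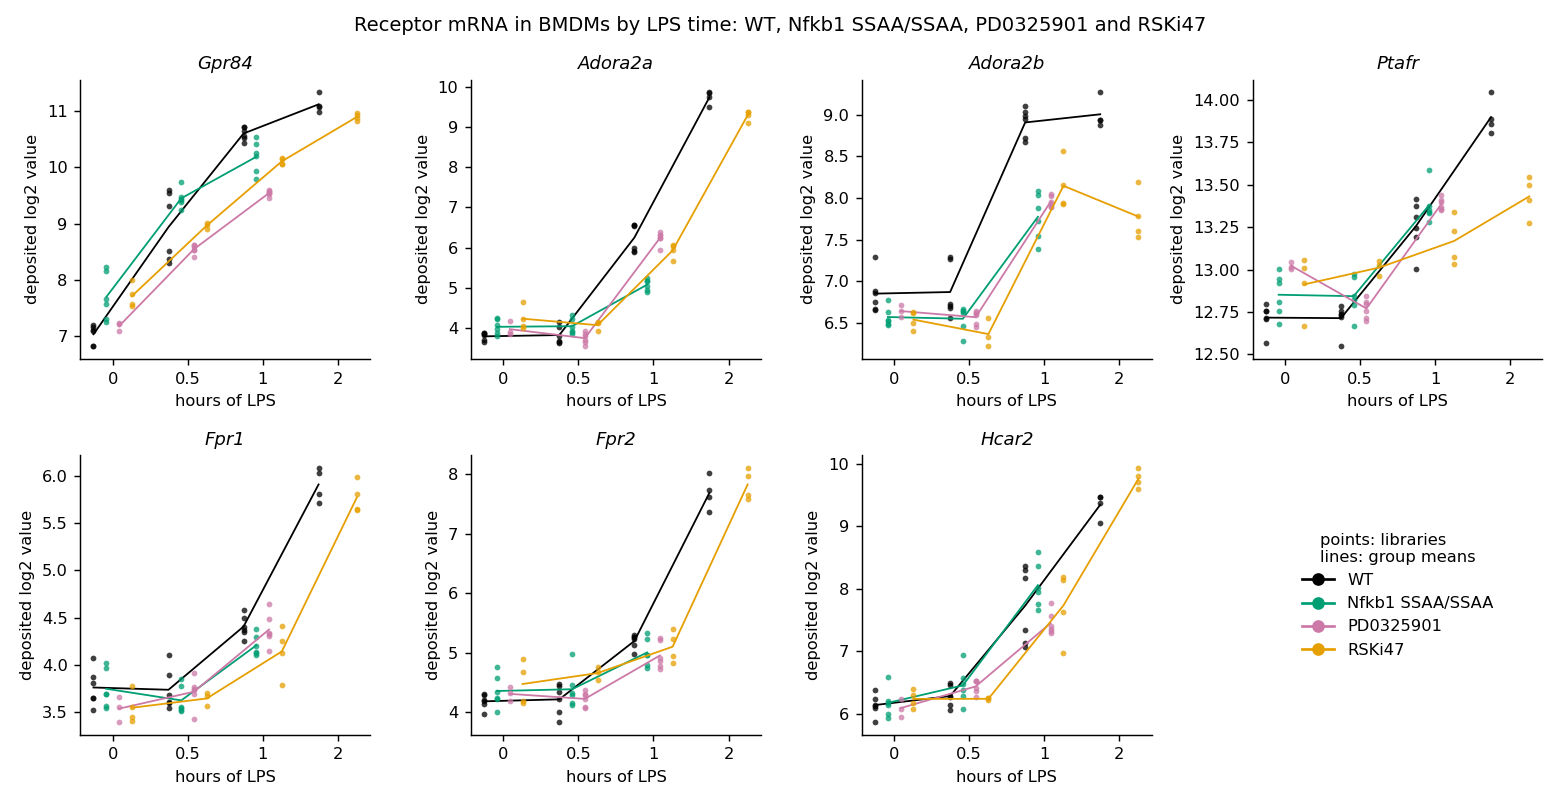
Deposited normalised log2 value of each receptor by hours of LPS (evenly spaced, not to scale) in WT BMDMs, *Nfkb1* SSAA/SSAA BMDMs, and WT BMDMs with PD0325901 (70 min of inhibitor without LPS as time 0) or RSKi47; points are libraries and lines join group means. *Adora2a* at 1 h lay between 4.91 and 5.25 in the *Nfkb1* mutant, below the WT range of 5.90 to 6.57, and *Adora2b* at 1 h was below the WT libraries in all 3 arms.

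The inhibitor and its solvent were also measured without LPS. PD0325901 for 10 min differed from DMSO by -0.15 to 0.05 over the 7 members, and 0% of genes passed in that comparison (0 by limma, with 245 at an unadjusted p under 0.05). DMSO against untreated WT passed for 1 member, *Ptafr*, higher by 0.19 ± 0.07 (SE, adjusted p = 0.0314), against 23.6% of genes. This call was lost when WT replicate 8 or any 1 of the 3 DMSO libraries was left out. After 70 min of PD0325901 the 3 libraries were 6.58 to 6.72 for *Adora2b*, all below the DMSO libraries of 6.83 to 6.92, and 13.004 to 13.04 for *Ptafr*, all above 12.90 to 12.92. *Hcar2* was 5.95 to 6.24, below 6.30 to 6.44 with DMSO. These 70 min libraries were not tested against DMSO, which was given for 10 min only. Against its own time-matched unstimulated cells, LPS with PD0325901 raised 1 member at 0.5 h and all 7 at 1 h, against 14.9% and 43.6% of genes.

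*Gpr84*, the medium-chain fatty acid receptor, was the fastest of the 7. In WT BMDMs the lowest, median and highest library was 6.82, 7.10 and 7.19 without LPS, 8.30, 8.91 and 9.60 at 0.5 h, and 10.44, 10.60 and 10.71 at 1 h. The 4 libraries at 2 h were 11.08, 11.06, 11.33 and 10.99. No WT library at one time overlapped with any at an earlier time. The rise was 1.90 ± 0.14 on the log2 scale (SE, 3.74-fold, adjusted p = 1.25e-16) at 0.5 h, 3.56 ± 0.14 (11.8-fold, adjusted p = 1.88e-29) at 1 h and 4.08 ± 0.16 (16.9-fold, adjusted p = 3.18e-30) at 2 h. At 0.5 h the WT libraries of the first replicate set were 8.36, 8.30 and 8.51 and those of the second 9.31, 9.54 and 9.60.

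*Map3k8* D270A/D270A BMDMs started near WT and reached a lower *Gpr84* level. Their lowest, median and highest library was 6.71, 6.86 and 7.01 without LPS, 8.10, 8.25 and 8.70 at 0.5 h, 9.31, 9.45 and 9.68 at 1 h, and 9.68, 9.85 and 10.03 at 2 h. All mutant libraries lay below all WT libraries at 1 and 2 h. The difference from WT was -1.13 ± 0.14 at 1 h (adjusted p = 1.39e-08; within the replicate sets -1.26 and -0.99) and -1.27 ± 0.16 at 2 h (adjusted p = 3.88e-09; -1.27 and -1.18). At 0.5 h the groups overlapped, and the difference of -0.63 ± 0.14 (adjusted p = 0.00608) was -0.22 in the first set (adjusted p = 0.173) and -1.03 in the second (adjusted p = 4.76e-05). That 0.5 h call was lost when WT replicate 8 was left out (-0.50, adjusted p = 0.0609) or when the spread came from these groups alone (adjusted p = 0.319).

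PD0325901 and RSKi47 gave lower *Gpr84* at 1 h as well. With PD0325901 the lowest, median and highest library was 9.45, 9.55 and 9.59 at 1 h, all below WT, a difference of -1.06 ± 0.13 (adjusted p = 4.84e-11). The PD0325901 libraries at 0.5 h, 8.40 to 8.62, lay within the WT range, and the difference of -0.39 ± 0.13 (adjusted p = 0.0141) was lost without WT replicate 7, 8 or 9. With RSKi47 the 1 h libraries were 10.14, 10.05, 10.05 and 10.17, also below every WT library (-0.49 ± 0.14, adjusted p = 0.00237). At 2 h they were 10.92, 10.87, 10.96 and 10.81, all below the lowest WT library, with a difference of -0.22 (95% interval -0.53 to 0.09) that did not pass (adjusted p = 0.229, or 0.0431 with the spread of these groups alone). RSKi47 cells without LPS were higher than WT, at 7.740, 7.528, 7.571 and 7.997 (0.68 ± 0.14, adjusted p = 3.64e-05).

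The *Nfkb1* mutant had a higher start and a smaller *Gpr84* rise. Its lowest, median and highest library was 7.25, 7.62 and 8.22 without LPS, 9.24, 9.43 and 9.74 at 0.5 h, and 9.78, 10.23 and 10.53 at 1 h. Without LPS all mutant libraries were above WT (0.66 ± 0.13, adjusted p = 1.85e-05), although with mutant replicates 1 to 3 alone the difference was 0.34 (adjusted p = 0.0796). At 0.5 h the difference was 0.51 ± 0.13 (adjusted p = 0.000944, or 0.12 with the spread of these groups alone). At 1 h the groups overlapped and the difference had turned to -0.41 ± 0.13 (adjusted p = 0.00576). In *Elk1*-/- *Elk4*-/- BMDMs without LPS all libraries were below WT, a difference of -0.30 that did not pass (adjusted p = 0.0982, or 0.00895 with the spread of these groups alone). The *Elk1*-/- *Elk4*-/- libraries were 10.16, 10.04, 9.77 and 10.25 at 1 h and 10.79, 10.61, 10.39 and 10.98 at 2 h, all below WT. These differences were -0.54 ± 0.16 (adjusted p = 0.00293) and -0.42 ± 0.17 (adjusted p = 0.0336), and the second was lost without WT replicate 6 (-0.35, adjusted p = 0.106) or without mutant replicate 2 or 3.

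*Hcar2*, the niacin and β-hydroxybutyrate receptor, showed the largest difference between *Map3k8* D270A/D270A and WT BMDMs among the 7. In WT BMDMs the lowest, median and highest library was 5.87, 6.14 and 6.38 without LPS and 7.07, 7.76 and 8.37 at 1 h, and the 2 h libraries were 9.48, 9.48, 9.37 and 9.06. The rise was 1.59 ± 0.14 (3.01-fold, adjusted p = 1.12e-14) at 1 h and 3.21 ± 0.16 (9.23-fold, adjusted p = 1.83e-25) at 2 h. The 1 h WT libraries were in separate ranges by replicate set, 8.17 to 8.37 in the first and 7.07 to 7.34 in the second.

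In the *Map3k8* mutant, *Hcar2* was 6.23, 6.39 and 6.73 (lowest, median and highest library) at 1 h and 7.16, 7.39 and 7.74 at 2 h. Every mutant library was below every WT library at both times. The difference was -1.30 ± 0.14 at 1 h (adjusted p = 2.92e-10) and -1.94 ± 0.16 at 2 h (0.261 of the WT level, adjusted p = 1.17e-14). Within the replicate sets it was -1.75 and -0.85 at 1 h and -1.81 and -1.88 at 2 h.

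With all libraries, *Hcar2* did not pass as lower than WT in another arm. At 1 h with PD0325901 the lowest, median and highest library was 7.29, 7.38 and 7.78, within the WT range, with a difference of -0.28 (95% interval -0.56 to 0.00, adjusted p = 0.117). That difference passed when WT replicate 7 or 9 was left out (-0.40, adjusted p = 0.0233, and -0.41, adjusted p = 0.0193). The *Elk1*-/- *Elk4*-/- libraries at 1 h were 8.35, 8.38, 8.32 and 8.39, at the upper end of WT, and differed by 0.63 ± 0.16 (adjusted p = 0.00067), or with an adjusted p of 0.0753 when the spread came from these groups alone. At 2 h they were 9.54, 9.54, 9.62 and 9.64, above all 4 WT libraries, and the difference of 0.24 (95% interval -0.11 to 0.58) did not pass. At 0.5 h these mutant libraries, 6.62, 6.65, 6.69 and 6.73, were also above WT (0.39 ± 0.16, adjusted p = 0.0392), a call lost when any 1 of the 4 mutant replicates or WT replicate 6, 7 or 9 was left out.

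With RSKi47, *Hcar2* reached 9.71, 9.81, 9.93 and 9.61 at 2 h, the highest level of any group and above every WT library. The difference of 0.42 ± 0.17 (adjusted p = 0.036) was lost without WT replicate 6 or 7 or RSKi47 replicate 2 or 3. It was also lost with no filter on low values (adjusted p = 0.0518), with quantile normalization (0.0623) and with the library medians made equal (0.0511). At 1 h the RSKi47 libraries were spread from 6.97 to 8.19 and the difference was 0.00 (95% interval -0.31 to 0.32). *Nfkb1* SSAA/SSAA libraries at 1 h had a lowest, median and highest value of 7.66, 7.99 and 8.59, overlapping WT (0.33, 95% interval 0.05 to 0.61, adjusted p = 0.0527). That difference passed, at 0.39 to 0.46, without WT replicate 4, 5 or 6 or mutant replicate 2 or 3.

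*Adora2a*, the Gs-coupled receptor with high affinity for adenosine, had the largest rise of the 7 in WT BMDMs and started later than *Gpr84*. Its lowest, median and highest WT library was 3.65, 3.84 and 3.88 without LPS, 3.63, 3.75 and 4.16 at 0.5 h, and 5.90, 6.27 and 6.57 at 1 h. The 2 h libraries were 9.86, 9.74, 9.85 and 9.49. Values at 0 and 0.5 h overlapped (0.03, 95% interval -0.26 to 0.33), and those at 1 and 2 h were clear of both. The rise was 2.45 ± 0.15 (5.48-fold, adjusted p = 3.94e-21) at 1 h and 5.94 ± 0.16 (61.4-fold, adjusted p = 1.86e-36) at 2 h.

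*Map3k8* D270A/D270A and PD0325901-treated BMDMs overlapped with WT in *Adora2a*. The lowest, median and highest mutant library was 5.80, 6.27 and 6.36 at 1 h and 9.01, 9.77 and 10.28 at 2 h. The differences were -0.07 (95% interval -0.37 to 0.22) and -0.05 (-0.39 to 0.28). The 2 h mutant libraries were in separate ranges by replicate set, 9.98 to 10.28 and 9.01 to 9.57, and the difference from the WT libraries of the same set was 0.32 (adjusted p = 0.0365) in the first and -0.26 (adjusted p = 0.496) in the second. With PD0325901 at 1 h the libraries were 5.95, 6.27 and 6.38 (lowest, median and highest), a difference of -0.01 (95% interval -0.26 to 0.24).

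*Nfkb1* SSAA/SSAA BMDMs had less *Adora2a* at 1 h, with libraries of 4.91, 5.10 and 5.25 (lowest, median and highest), all below WT. The difference was -1.17 ± 0.13 (adjusted p = 3.76e-13). RSKi47 libraries were 9.11, 9.38, 9.38 and 9.29 at 2 h, all below WT (-0.45 ± 0.16, adjusted p = 0.012, or -0.38 and 0.0506 without RSKi47 replicate 1). Without LPS they were 4.22, 4.00, 4.06 and 4.66, all above WT (0.44 ± 0.14, adjusted p = 0.00659, or 0.30 and 0.0993 without RSKi47 replicate 4). *Elk1*-/- *Elk4*-/- libraries at 2 h were 9.47, 9.16, 9.04 and 9.49, below or level with the lowest WT library. That difference, -0.45 ± 0.18 (adjusted p = 0.035), was lost without WT replicate 4, 5 or 6 or mutant replicate 2 or 3, and with the replicate block (-0.42, adjusted p = 0.0509).

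*Adora2b*, the lower-affinity adenosine receptor, was lower than WT in every mutant and inhibitor arm at its last time measured. In WT BMDMs the lowest, median and highest library was 6.66, 6.81 and 7.29 without LPS, 6.56, 6.72 and 7.29 at 0.5 h, and 8.67, 8.96 and 9.10 at 1 h, and the 2 h libraries were 8.94, 8.88, 8.94 and 9.27. Most of the rise was present at 1 h. It was 2.05 ± 0.13 (4.15-fold, adjusted p = 8.43e-20) at 1 h and 2.15 ± 0.15 (4.45-fold, adjusted p = 4.64e-19) at 2 h.

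*Map3k8* D270A/D270A BMDMs also gained *Adora2b* by 1 h and were far below WT at 2 h. Their lowest, median and highest library was 8.19, 8.42 and 8.85 at 1 h and 6.96, 7.54 and 7.99 at 2 h. The 1 h groups overlapped and the 2 h groups did not. The difference was -0.45 ± 0.13 at 1 h (adjusted p = 0.019; -0.59 and -0.32 within the replicate sets, the second with an adjusted p of 0.395) and -1.50 ± 0.15 at 2 h (adjusted p = 8.52e-12; -1.77 and -1.40). The 1 h call was lost without WT replicate 6 (adjusted p = 0.056).

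The *Elk1*-/- *Elk4*-/- and RSKi47 arms had a lower mean at 2 h than at 1 h, as the *Map3k8* mutant did, and WT did not. The *Elk1*-/- *Elk4*-/- libraries were 8.99, 8.91, 8.75 and 9.14 at 1 h, like WT (0.04, 95% interval -0.26 to 0.34), and 8.12, 8.26, 8.28 and 8.25 at 2 h, all below WT (-0.78 ± 0.16, adjusted p = 7.7e-05). With RSKi47 the libraries were 8.56, 8.16, 7.93 and 7.94 at 1 h and 7.78, 7.61, 7.53 and 8.19 at 2 h. They were below WT at both times, by -0.76 ± 0.13 (adjusted p = 9.81e-07) and -1.23 ± 0.15 (adjusted p = 8.86e-12). The step from 1 to 2 h itself was not tested in any arm.

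*Adora2b* at 1 h was also lower with PD0325901, with a lowest, median and highest library of 7.89, 7.94 and 8.05 (-0.95 ± 0.12, adjusted p = 2.05e-10), and in the *Nfkb1* mutant, with 7.39, 7.80 and 8.08 (-1.13 ± 0.12, adjusted p = 1.06e-13). Neither overlapped WT. Before 1 h there were smaller differences, of -0.50 ± 0.15 with RSKi47 at 0.5 h (adjusted p = 0.00277) and of -0.30 to -0.32 in RSKi47 without LPS, the *Nfkb1* mutant at 0.5 h and PD0325901 at 0.5 h (adjusted p = 0.0419, 0.0299 and 0.0456). Each of those last 3 was lost without WT replicate 7 or 9. The RSKi47 call was also lost without WT replicate 6 or RSKi47 replicate 1 or 2, the *Nfkb1* call without mutant replicate 3 or 6, and the PD0325901 call without any 1 of its 6 replicates.

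*Ptafr*, the platelet-activating factor receptor, was high before LPS and changed least. In WT BMDMs the lowest, median and highest library was 12.57, 12.74 and 12.80 without LPS and 13.001, 13.28 and 13.42 at 1 h, and the 2 h libraries were 13.81, 13.86, 14.04 and 13.89. These 3 times did not overlap. The rise was 0.54 ± 0.06 (1.45-fold, adjusted p = 5.33e-12) at 1 h and 1.18 ± 0.06 (2.27-fold, adjusted p = 1.26e-23) at 2 h.

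At 2 h *Ptafr* was lower than WT in each of the 3 arms measured then. *Map3k8* D270A/D270A libraries were 13.52, 13.55 and 13.66 (lowest, median and highest), *Elk1*-/- *Elk4*-/- libraries 13.47, 13.62, 13.62 and 13.33, and RSKi47 libraries 13.54, 13.41, 13.50 and 13.27. None reached the lowest WT library. The differences were -0.33 ± 0.06 (adjusted p = 4.84e-05; -0.37 and -0.28 within the replicate sets, the second with an adjusted p of 0.059), -0.39 ± 0.07 (adjusted p = 6.39e-06) and -0.47 ± 0.07 (adjusted p = 1.3e-08).

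The *Elk1*-/- *Elk4*-/- arm started from a higher *Ptafr* level. Its libraries without LPS were 13.10, 13.05, 13.25 and 12.87, all above WT (0.35 ± 0.06, adjusted p = 6.82e-06), and at 0.5 h 13.0005, 12.99, 13.17 and 12.83 (0.28 ± 0.06, adjusted p = 0.000258). At 1 h the difference was 0.16 ± 0.06 (adjusted p = 0.0337) and was lost without WT replicate 7, 8 or 9 or mutant replicate 2 or 3. RSKi47 libraries at 0.5 h, 13.03, 12.96 and 13.05, were above WT too (0.30 ± 0.07, adjusted p = 0.000209), and those without LPS overlapped WT (0.20 ± 0.06, adjusted p = 0.00655, or 0.15 and 0.0613 without RSKi47 replicate 3). With PD0325901 the LPS rise at 1 h was 0.37 ± 0.07 (adjusted p = 4.34e-06), from 13.04, 13.004 and 13.02 in the 70 min unstimulated libraries to between 13.35 and 13.44, and under quantile normalization it was 0.13 (adjusted p = 0.0916).

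*Fpr1* and *Fpr2*, the formyl peptide receptor genes, were late, and neither passed the test at 0.5 h in WT BMDMs (-0.02 and 0.03). *Fpr1* had a lowest, median and highest WT library of 3.52, 3.73 and 4.07 without LPS and 4.25, 4.38 and 4.58 at 1 h, and 2 h libraries of 6.08, 5.81, 6.04 and 5.71. *Fpr2* had 3.97, 4.20 and 4.30 without LPS and 4.97, 5.25 and 5.30 at 1 h, and 7.73, 7.61, 8.03 and 7.37 at 2 h. Both were clear of their unstimulated values at 1 and 2 h. *Fpr1* rose by 0.65 ± 0.12 (adjusted p = 5.58e-06) and 2.15 ± 0.13 (4.44-fold, adjusted p = 2.95e-21), and *Fpr2* by 1.02 ± 0.14 (adjusted p = 1.79e-08) and 3.51 ± 0.16 (11.4-fold, adjusted p = 6.74e-27).

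Both were lower in *Map3k8* D270A/D270A BMDMs at 2 h. At 1 h all 6 mutant libraries of *Fpr2* (4.66 to 4.95) were below all 6 of WT (4.97 to 5.30), a difference of -0.36 that did not pass (adjusted p = 0.0983, or 0.00663 with the spread of these groups alone). *Fpr1* had a lowest, median and highest mutant library of 3.49, 3.79 and 4.32 at 1 h and 4.77, 5.05 and 5.33 at 2 h, the latter all below WT. The differences were -0.56 ± 0.12 (adjusted p = 0.0006; -0.71 and -0.41 within the replicate sets, the second with an adjusted p of 0.186) and -0.85 ± 0.13 (adjusted p = 9.47e-07; -0.75 and -0.82). *Fpr2* at 2 h was 6.34, 6.86 and 7.55, which overlapped WT, with a difference of -0.80 ± 0.16 (adjusted p = 8.3e-05; -0.40 and -0.99 within the sets). The mutant libraries of the first set, 7.28 to 7.55, were all above those of the second, 6.34 to 6.43, and with the spread of these groups alone the *Fpr2* difference had an adjusted p of 0.0731.

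*Elk1*-/- *Elk4*-/- BMDMs differed from WT in the other direction. *Fpr1* libraries were 4.06, 3.65, 4.04 and 3.85 without LPS, 4.30, 4.38, 4.18 and 3.79 at 0.5 h, 5.42, 5.24, 5.64 and 5.77 at 1 h, and 6.59, 6.74, 6.68 and 6.72 at 2 h. They overlapped WT without LPS (0.14, 95% interval -0.12 to 0.41) and were above every WT library at 1 and 2 h. The differences were 0.43 ± 0.13 (adjusted p = 0.00697) at 0.5 h, 1.11 ± 0.13 (2.17-fold, adjusted p = 6.71e-10) at 1 h and 0.77 ± 0.14 (adjusted p = 1.19e-05) at 2 h. *Fpr2* was already higher without LPS, at 4.90, 5.20, 5.01 and 4.67 (0.77 ± 0.16, adjusted p = 6.02e-05), stayed so at 0.5 h (0.73 ± 0.16, adjusted p = 0.000199) and 1 h (0.56 ± 0.16, adjusted p = 0.00249), and at 2 h was 7.77, 8.07, 8.07 and 8.07, which overlapped WT (0.31, 95% interval -0.04 to 0.66).

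Neutrophils are a known source of formyl peptide receptor transcripts, and neutrophil markers were also higher in the *Elk1*-/- *Elk4*-/- libraries. Of 11 markers listed, 8 were tested, and 6 of the 8 were higher in *Elk1*-/- *Elk4*-/- than in WT BMDMs at each of the 4 times, while the other 2 did not pass (against 51.8%, 44.4%, 53.4% and 50.8% of all genes that passed in either direction), with a median difference over the list of 2.13, 2.19, 1.98 and 2.26. The log2 of their summed linear values ran from 11.52 to 12.16 over the *Elk1*-/- *Elk4*-/- libraries, from 10.98 to 11.38 over WT and from 11.02 to 11.40 over *Map3k8* D270A/D270A. Among the markers the highest library was 11.12 for *Csf3r*, 10.50 for *Mmp8*, 9.75 for *S100a9*, 9.10 for *Ngp*, 8.48 for *S100a8* and 8.41 for *Ltf*. That of *Ly6g*, *Elane* and *Mpo* was 0.60, 0.95 and 2.23. Group means ran from 10.31 to 10.88 for *Csf3r* and from 9.04 to 10.13 for *Mmp8*, against 4.90 to 9.48 for *S100a9*. Higher genes weigh most in the summed value. In the *Map3k8* mutant 0 of the 8 markers passed against WT at any time, and none of the 8 passed in the test of the LPS response of *Elk1*-/- *Elk4*-/- against that of WT, at 1 h or at 2 h. The part of the markers in the *Fpr1* and *Fpr2* results was not tested.

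**Figure D3:**
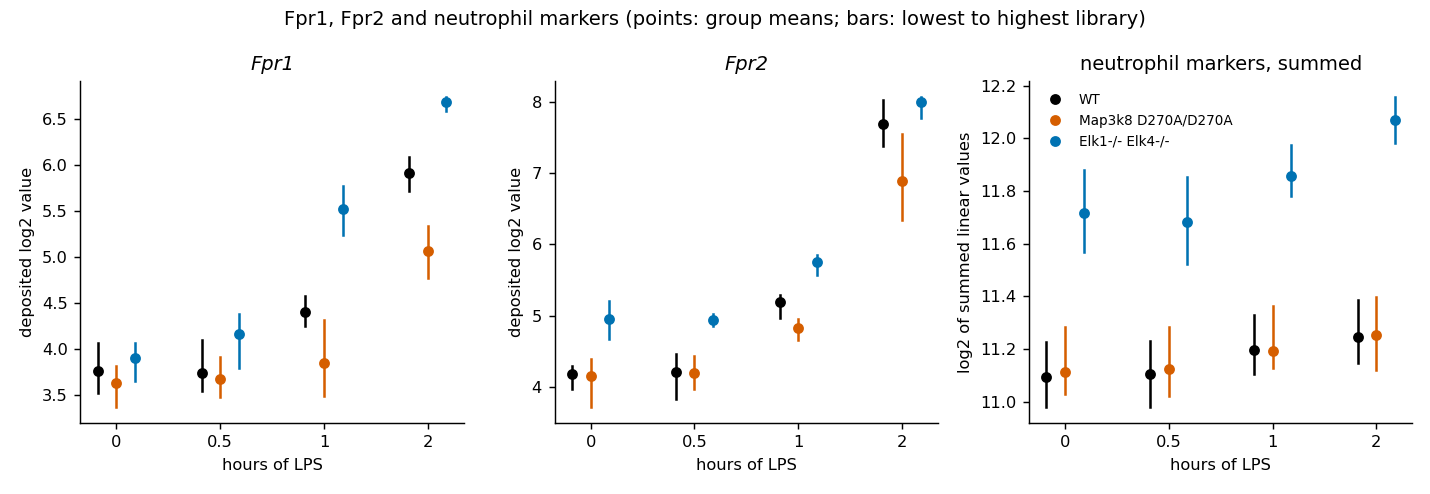
*Fpr1*, *Fpr2* and the log2 of the summed linear values of the neutrophil markers (vertical axes, log2) by hours of LPS in WT, *Map3k8* D270A/D270A and *Elk1*-/- *Elk4*-/- BMDMs; points are group means and bars run from the lowest to the highest library. The summed markers were above WT in the *Elk1*-/- *Elk4*-/- libraries at every time, and those of the *Map3k8* mutant, 11.02 to 11.40, lay close to WT.

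With the inhibitors and in the *Nfkb1* mutant the 2 receptors were mostly near WT. At 1 h *Fpr1* was 4.14 to 4.64 with PD0325901 and 4.10 to 4.38 in the *Nfkb1* mutant, and *Fpr2* was 4.71 to 5.24 and 4.74 to 5.32, all overlapping WT. With RSKi47 at 2 h *Fpr1* was 5.64, 5.81, 5.65 and 5.99 (-0.14, 95% interval -0.41 to 0.13) and *Fpr2* 7.59, 8.10, 7.98 and 7.65 (0.14, -0.19 to 0.48). *Fpr2* with RSKi47 at 0.5 h, 4.76, 4.66 and 4.54, was above WT (0.44 ± 0.17, adjusted p = 0.0248), a call lost without WT replicate 4 or 5 or RSKi47 replicate 1 or 2. In the RSKi47 libraries 4 or 5 of the 8 neutrophil markers and both stromal markers tested were higher than in WT at each time (against 53%, 48.2%, 52.8% and 52.1% of genes), and the summed stromal markers ran from 5.06 to 9.42 against 3.97 to 4.93 in WT. Their part in the RSKi47 results was not tested. In the *Nfkb1* mutant 1, 1 and 4 neutrophil markers were higher at 0, 0.5 and 1 h (against 32%, 32.3% and 42.5% of genes), and with PD0325901 6 and 5 at 0.5 and 1 h (against 29.4% and 35.7%).

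**Figure D4:**
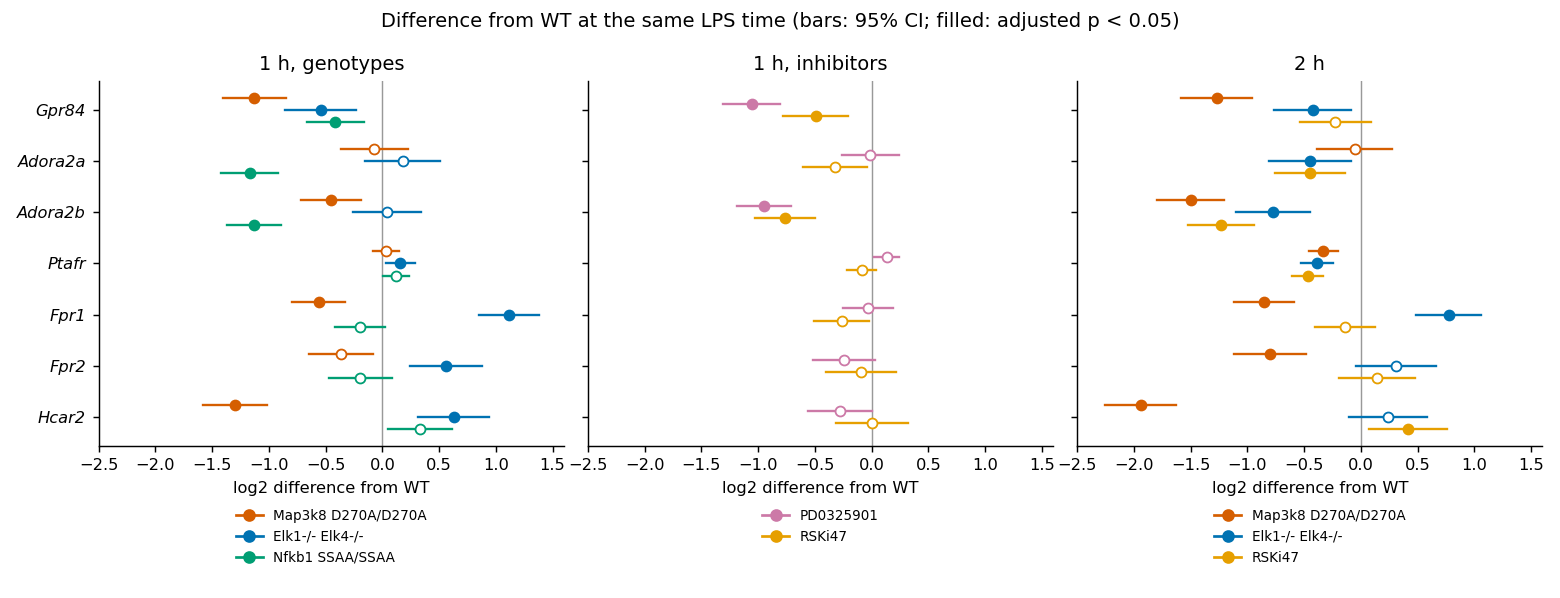
Log2 difference from WT at the same time of LPS for each receptor at 1 h in the mutants, at 1 h with the inhibitors, and at 2 h; bars are 95% intervals from the limma fits and filled points have an adjusted p under 0.05. At 2 h *Adora2b* was below WT in all 3 arms shown, with -0.78 in *Elk1*-/- *Elk4*-/- BMDMs and -1.50 in the *Map3k8* mutant, and *Hcar2* was below WT in the *Map3k8* mutant only among these arms.

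Because some arms differed before LPS, the LPS response of each arm was also tested against the WT response. Of 56 such tests (7 receptors in 8 comparisons), 24 passed, 2 with a larger and 22 with a smaller response than WT. In the *Map3k8* mutant 2 members had a smaller response at 1 h and 6 at 2 h, against 2.02% and 15.5% of genes that passed. At 2 h the response was smaller by 1.93 ± 0.21 for *Hcar2* (adjusted p = 5.24e-10), by 1.61 ± 0.20 for *Adora2b* (adjusted p = 1.62e-08) and by 1.08 ± 0.21 for *Gpr84* (adjusted p = 0.000115), and for *Adora2a* the difference was -0.06 (95% interval -0.51 to 0.38). The response of *Fpr2* was smaller by 0.78 ± 0.21 (adjusted p = 0.00717), or by 0.67 without WT replicate 6 (adjusted p = 0.0516). In *Elk1*-/- *Elk4*-/- BMDMs 1 member passed at 1 h and 3 at 2 h, against 1.35% and 16.9% of genes. *Fpr1* had a larger response, by 0.97 ± 0.19 at 1 h (adjusted p = 0.00102) and by 0.63 ± 0.19 at 2 h (adjusted p = 0.0179), and that at 2 h was lost without WT replicate 7 (0.50, adjusted p = 0.0826) or mutant replicate 2. *Fpr2*, which was higher than WT before LPS, did not pass at 2 h (-0.46, 95% interval -0.93 to 0.01), and *Ptafr* and *Adora2b* had smaller responses (-0.74 ± 0.09, adjusted p = 5.02e-08, and -0.91 ± 0.22, adjusted p = 0.00206). With a replicate block of arm and number, the response of *Adora2b* in the *Map3k8* mutant at 1 h also passed as smaller (-0.57, adjusted p = 0.00306, against 0.134 without it), as did that of *Adora2a* in *Elk1*-/- *Elk4*-/- BMDMs at 2 h (-0.57, adjusted p = 0.0304, against -0.60 and 0.0857 without it). Both also passed in the fit of all libraries (adjusted p = 0.0485 and 0.0357).

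The LPS responses of the other arms were tested in the same way. In the *Nfkb1* mutant at 1 h 3 members had a smaller response, against 6.07% of genes: *Adora2a* (-1.41 ± 0.18, adjusted p = 1.39e-09), *Gpr84* (-1.07 ± 0.18, adjusted p = 3.92e-06) and *Adora2b* (-0.85 ± 0.17, adjusted p = 0.000129). With PD0325901 at 1 h *Gpr84* (-1.20 ± 0.20, adjusted p = 6.14e-06) and *Adora2b* (-0.74 ± 0.19, adjusted p = 0.00796, or -0.69 and 0.0709 without PD0325901 replicate 1) passed, against 3.58% of genes. With RSKi47 3 members passed at 1 h and 4 at 2 h, all smaller, against 5.54% and 21% of genes. The 1 h responses were *Gpr84* (-1.17 ± 0.20, adjusted p = 1.64e-05), *Adora2a* (-0.76 ± 0.20, adjusted p = 0.00895, lost without RSKi47 replicate 1 or 4) and *Ptafr* (-0.28 ± 0.09, adjusted p = 0.0404, lost without WT replicate 4, 5, 6 or 9 or RSKi47 replicate 1, 2 or 3). Those at 2 h were *Gpr84* (-0.90 ± 0.21, adjusted p = 0.000704), *Adora2a* (-0.88 ± 0.21, adjusted p = 0.000824), *Adora2b* (-0.92 ± 0.20, adjusted p = 0.000211) and *Ptafr* (-0.66 ± 0.09, adjusted p = 2.14e-08). *Fpr1*, *Fpr2* and *Hcar2* did not pass in this test in the *Nfkb1*, PD0325901 or RSKi47 arms. With the replicate block *Adora2b* with RSKi47 at 1 h passed as well (-0.45, adjusted p = 0.029, against 0.179 without it).

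**Figure D5:**
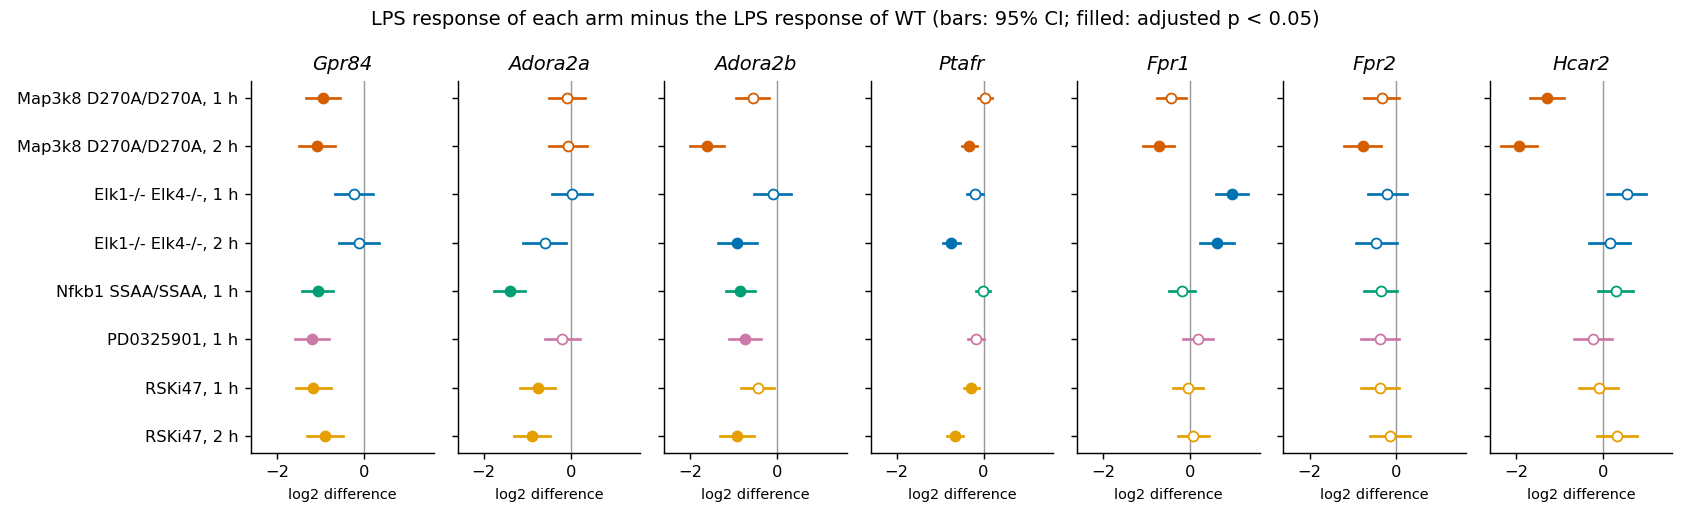
LPS response of each receptor in each arm minus the response in WT BMDMs at 1 and 2 h (log2, horizontal axis). The vertical line at 0 means equal responses. Bars are 95% intervals from the limma fits and filled points have an adjusted p under 0.05. *Hcar2* in the *Map3k8* mutant at 2 h is lowest at -1.93, and *Fpr1* in the *Elk1*-/- *Elk4*-/- BMDMs is the receptor with a larger response, 0.97 at 1 h and 0.63 at 2 h.

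Arms were also compared with each other. At 2 h *Elk1*-/- *Elk4*-/- exceeded *Map3k8* D270A/D270A BMDMs in 5 of 7 members and was lower in 1, against 26.4% of genes that passed as higher and 23.2% as lower. The differences were 2.18 ± 0.16 for *Hcar2* (adjusted p = 8.31e-17), 1.62 ± 0.13 for *Fpr1* (adjusted p = 6.35e-15), 1.11 ± 0.16 for *Fpr2*, 0.84 ± 0.16 for *Gpr84* and 0.72 ± 0.15 for *Adora2b*. *Ptafr*, which was lower than WT in both, differed by -0.06 (95% interval -0.19 to 0.07), and *Adora2a* was lower in *Elk1*-/- *Elk4*-/- (-0.39 ± 0.16, adjusted p = 0.0439, or 0.0507 with the replicate block). That *Adora2a* difference was lost without *Map3k8* mutant replicate 1, 2 or 3 or *Elk1*-/- *Elk4*-/- replicate 2 or 3, and was -0.27 to -0.35 in those fits.

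At 1 h the *Nfkb1* and *Map3k8* mutants differed in 5 of 7 members, 3 higher and 2 lower in the *Nfkb1* mutant, against 22.7% of genes higher and 24.6% lower. *Hcar2* was higher in the *Nfkb1* mutant by 1.63 ± 0.14 (adjusted p = 1.25e-17) and *Gpr84* by 0.72 ± 0.13 (adjusted p = 1.85e-06), whereas *Adora2a* (-1.10 ± 0.13, adjusted p = 4.59e-12) and *Adora2b* (-0.68 ± 0.12, adjusted p = 1.41e-06) were lower. PD0325901 exceeded the *Map3k8* mutant in 2 members and was lower in 1, against 18.5% of genes higher and 22.2% lower. *Hcar2* was higher with PD0325901 by 1.02 ± 0.14 (adjusted p = 6.92e-09), *Fpr1* was higher by 0.53 ± 0.11 (adjusted p = 5.69e-05) and *Adora2b* was lower by 0.50 (SE 0.12, adjusted p = 0.000481). For *Gpr84* the difference between these arms was 0.07 (95% interval -0.18 to 0.32).

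The inhibitors PD0325901 and RSKi47, whose doses differ, were set side by side at 1 h. *Gpr84* was higher with RSKi47 by 0.56 ± 0.14 (adjusted p = 0.000502) and *Ptafr* lower (-0.22 ± 0.06, adjusted p = 0.00229), so that 1 member was higher and 1 lower, against 28.6% and 25.3% of genes. *Adora2b*, which was below WT with both inhibitors, differed between them by 0.19 (95% interval -0.08 to 0.45).

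Over the 25 group means, *Gpr84*, *Adora2a*, *Adora2b* and *Ptafr* were highest in WT BMDMs at 2 h of LPS, *Fpr1* and *Fpr2* in *Elk1*-/- *Elk4*-/- BMDMs at 2 h, and *Hcar2* with RSKi47 at 2 h. The lowest groups were without LPS or at 0.5 h for every receptor. Single libraries ran from 6.69 to 11.33 for *Gpr84*, 5.87 to 9.93 for *Hcar2*, 3.55 to 10.28 for *Adora2a*, 6.22 to 9.27 for *Adora2b*, 12.55 to 14.04 for *Ptafr*, 3.37 to 6.74 for *Fpr1* and 3.72 to 8.10 for *Fpr2*. With the groups placed in order of their means, 10 of the 24 neighbouring pairs differed by more than the larger of their SDs for *Gpr84*, 4 each for *Adora2a*, *Fpr1*, *Fpr2* and *Hcar2*, 3 for *Adora2b* and 2 for *Ptafr*. The remaining neighbours did not differ beyond their spread.

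Correlations over the 25 group means describe which genes ran alongside each receptor, among 1120 genes whose group means had an SD of at least 0.5. The points share libraries and the LPS time course. Among the members, Pearson's r ran from 0.64 (*Adora2b* with *Fpr2*) to 0.95 (*Fpr1* with *Fpr2*). The 3 genes most like *Gpr84* were *Sdc4* (0.97), *Zc3h12a* (0.97) and *Ptgs2* (0.96), which encode a syndecan, an RNase and cyclooxygenase-2. For *Adora2a* they were *Foxp4*, *Shisa3* and *Kpna3* (0.99 each), and for *Adora2b* *Il23a* (0.93), *Mmd* (0.92) and *Abhd17c* (0.92). *Ptafr* was most like *Mmp13* (0.96), *Dusp16* (0.95) and *Trex1* (0.95). *Fpr1* was most like *A1cf* (0.96), *Fpr2* (0.95) and *Nck1* (0.95), *Fpr2* like *Lztfl1* (0.99), *Rasgrp1* (0.98) and *Ppp1r15b* (0.98), and *Hcar2* like *Fpr1* (0.94), *A630072M18Rik* (0.93) and *Il6* (0.93).

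Other genes of these pathways were counted from lists. Of 10 other purine receptors tested, 5 were higher and 3 lower in WT BMDMs at 2 h (list median 0.16), led by the nucleotide receptor genes *P2ry2* (2.71), *P2ry1* (-1.20) and *P2rx7* (-0.89). Of 8 genes of adenosine supply and removal, 4 were higher and 2 lower (median 0.12), with the AMP deaminase gene *Ampd3* at 1.96, the purine nucleoside phosphorylase gene *Pnp* at 1.48 and the nucleoside transporter gene *Slc29a3* at -0.70. Both medians lay close to the -0.02 of all genes, where 71.5% passed, while the 7 members had a median of 3.21. Members and lists were chosen with earlier results of these data known, so these medians only describe the genes chosen.

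In the same comparison, where 71.5% of all genes passed in either direction, 3 of 6 other metabolite and proton receptors tested were higher and 2 lower (median 0.40), including *Gpr132* (2.52), *Gpr31b* (1.204) and the proton-sensing *Gpr65* (-0.9997). Of 16 other chemoattractant and lipid mediator receptors, 4 were higher and 8 lower (median -0.15), with *Ccrl2* at 3.10, *Ccr3* at 1.14 and *Cxcr4* at -2.25. The enzymes that make or break down platelet-activating factor had 4 of 8 higher and 2 lower, led by *Lpcat1* (1.24). Among 4 genes listed as ligands of formyl peptide receptors, 3 were higher and 0 lower, namely *Saa3* (4.26), *Anxa1* (0.47) and *Lcn2* (2.90). *Lcn2* encodes a siderophore-binding protein, so the counts for this list, here and below, are not of receptor ligands only. Among 19 G protein and cAMP genes 8 were higher and 9 lower, including the phosphodiesterase gene *Pde4b* (2.74), the adenylyl cyclase gene *Adcy6* (1.52) and *Gna13* (1.29). The *Fpr* relatives listed (5 symbols) had no value in the table.

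The same lists were counted in the arms. In *Map3k8* D270A/D270A BMDMs at 2 h, members of the lists higher and lower than WT numbered 1 and 3 for purine receptors, 2 and 1 for adenosine supply and removal, 1 and 2 for metabolite receptors, 3 and 5 for chemoattractant receptors, 1 and 1 for platelet-activating factor enzymes, 0 and 2 for the ligands, and 1 and 5 for G protein and cAMP genes, where 27.7% of all genes passed in either direction. *Saa3* (-1.59), *Lcn2* (-1.17), *Gpr31b* (-1.01) and *P2ry2* (-0.75) were lower and *Ccrl2* (0.38) was higher. In *Elk1*-/- *Elk4*-/- BMDMs at 2 h the counts were, in the same order of lists, 4 and 3, 2 and 3, 0 and 2, 6 and 4, 2 and 2, 2 and 0, and 2 and 6, where 50.8% of all genes passed. *P2ry2* (-0.61) and *Adcy6* (-0.58) were lower there and *Lcn2* (1.63) was higher. With RSKi47 at 2 h they were 2 and 4, 2 and 3, 0 and 3, 5 and 6, 3 and 3, 1 and 2, and 6 and 5, where 52.1% of all genes passed, with *Adcy6* (-1.07), *P2ry2* (-1.04) and *Ccr3* (-0.98) lower and *Ccrl2* (0.82) higher.

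At 1 h the *Nfkb1* mutant had, in that order, 3 and 1, 2 and 2, 0 and 3, 3 and 6, 2 and 2, 1 and 0, and 4 and 10 genes higher and lower than WT, where 42.5% of all genes passed. *Saa3* (2.12) and *Ccrl2* (0.77) were higher and *Gpr132* (-1.22) was lower. With PD0325901 at 1 h the counts were 3 and 1, 2 and 1, 0 and 4, 1 and 5, 0 and 0, 4 and 0, and 1 and 7, where 35.7% of all genes passed, with *Lcn2* (1.06) and *Ccrl2* (0.72) higher and *Gpr132* (-0.53) and *Ampd3* (-0.49) lower. All values named for these lists passed the test.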

How the data were processed

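RNA from BMDMs was sequenced as single-end, strand-specific libraries on an Illumina sequencer. Per the submitters' processing notes, reads were aligned with STAR 2.5.1b and quantified with RSEM 1.2.29 on mm10 genes, and DESeq2 1.10.1 was used; the role of each version is taken from the study's methods, which print other versions of STAR and RSEM. The deposited table holds normalised values on a log2 scale for each library, and the transformation the authors applied is unstated in the labels and methods. The methods give a typical sequencing yield, while the counts and depth of each library were not used here. The 1 value above a limit of 25 (*Fosb*, RSKi47 replicate 1 at 1 h) was set to missing.

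Values were analysed with limma 3.58.1 in R 4.3.3 as deposited, since a count test could not be run. The first fit held the 62 libraries of the WT, *Map3k8* D270A/D270A and *Elk1*-/- *Elk4*-/- arms and tested the 11884 genes that reached 10 on the linear scale in 4 or more of them. The second held every library and tested 11971 genes that did so in 3 or more. Each group had 1 mean, with no replicate block, and p-values were adjusted by Benjamini-Hochberg over all genes tested. The first fit gave the comparisons among those 3 arms and the second all others, including every comparison with an inhibitor or the *Nfkb1* mutant. The scripts were tested on simulated data. No 2 libraries held identical values.

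The members and gene lists were chosen with earlier results of these data known. All 7 members were named in every group. From each list up to 3 genes were named, those with the largest difference at 2 h of LPS in WT among genes that passed, and for each member the 3 genes with the highest correlation over the 25 group means. Samples were grouped by title. Within an arm, libraries with the same replicate number deviated from their group means together (r over 0.1 in 30 of 30 pairs in WT, 18 of 18 in *Nfkb1* SSAA/SSAA, 34 of 36 in *Map3k8* D270A/D270A, 20 of 21 with RSKi47, 20 of 24 in *Elk1*-/- *Elk4*-/- and 14 of 33 with PD0325901). Alternatives covered the filter, the normalization, the limma settings, the libraries in the fit, a replicate block, the replicate sets, the threshold and leaving out each replicate. Promoter sequences came from RefSeq, for 5 of 7 members, without the 50 bases after the start.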

Additional observations from a re-analysis of the deposited data

Results flagged for a closer look

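In groups of 4 or 6 libraries, 8 of 140 sets of values of 1 receptor in 1 group had a library that stood apart, with a gap to its nearest neighbour that took a large share of the range of the group. Chance alone gives such a flag in about 1 group in 20. In *Elk1*-/- *Elk4*-/- BMDMs replicate 1 stood apart 3 times, for *Fpr2* at 2 h (0.984 of the range, 7.77 against 8.07 in the other 3), for *Adora2b* at 2 h (0.834, 8.12 against 8.25 to 8.28) and for *Gpr84* without LPS (0.836, 6.81 against 6.69 to 6.71). *Adora2b* stood apart in WT replicate 9 without LPS (0.653, 7.29 against 6.66 to 6.88) and in WT replicate 7 at 2 h (0.847, 9.27 against 8.88 to 8.94). *Ptafr* was low in WT replicate 8 at 0.5 h (0.724, 12.55 against 12.72 to 12.79) and high in *Nfkb1* SSAA/SSAA replicate 1 at 1 h (0.684, 13.59 against 13.28 to 13.38). *Adora2a* was low in PD0325901 replicate 5 at 1 h (0.648, 5.95 against 6.23 to 6.38).

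The LPS response of a receptor differed from that in WT BMDMs in 24 of 56 tests of the difference itself (limma, adjusted p under 0.05), read against the share of all genes that passed in each comparison. In the *Map3k8* mutant this was so at 1 h for *Gpr84* (-0.94) and *Hcar2* (-1.29), and at 2 h for *Gpr84* (-1.08), *Adora2b* (-1.61), *Ptafr* (-0.33), *Fpr1* (-0.72), *Fpr2* (-0.78) and *Hcar2* (-1.93), against 2.02% and 15.5% of genes. In *Elk1*-/- *Elk4*-/- BMDMs it was so for *Fpr1* at 1 h (0.97) and 2 h (0.63) and for *Adora2b* (-0.91) and *Ptafr* (-0.74) at 2 h, against 1.35% and 16.9% of genes. In the *Nfkb1* mutant at 1 h it was so for *Gpr84* (-1.07), *Adora2a* (-1.41) and *Adora2b* (-0.85), against 6.07%, and with PD0325901 at 1 h for *Gpr84* (-1.20) and *Adora2b* (-0.74), against 3.58%. With RSKi47 it was so at 1 h for *Gpr84* (-1.17), *Adora2a* (-0.76) and *Ptafr* (-0.28), and at 2 h for *Gpr84* (-0.90), *Adora2a* (-0.88), *Adora2b* (-0.92) and *Ptafr* (-0.66), against 5.54% and 21% of genes.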

How the results depend on the processing

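Across 13 settings and 35 fits that each left out 1 replicate, 4491 of 4690 recomputed differences stayed on their side of the threshold and, where they passed, kept their direction, 121 no longer passed, 74 newly passed and 4 turned sign while passing before or after. Sign changes of differences that passed in neither setting were not counted. The 15 calls of LPS in WT BMDMs, all higher, were also 15 in each fit that left out a WT replicate. The table gives no counts, so depth could not be used to set the precision of a value.

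Counts of calls over all times of a comparison also changed with a threshold on size. At 2-fold, at a difference of the natural logarithm of 2, and at 1.5-fold, the higher calls of *Elk1*-/- *Elk4*-/- against WT were 1, 4 and 5 in place of 11 and the lower 0, 1 and 1 in place of 5. For the *Nfkb1* mutant they were 0, 0 and 1 higher in place of 2 and 2, 2 and 2 lower in place of 4, for PD0325901 1, 2 and 2 lower in place of 4, for RSKi47 0, 0 and 1 higher in place of 6 and 1, 2 and 2 lower in place of 7, and for DMSO 0, 0 and 0 higher in place of 1. For the *Map3k8* mutant 5 and 7 lower calls were made at the first pair of thresholds, in place of 11. At 2-fold LPS with PD0325901 had 5 in place of 8, the difference of responses 0 higher in place of 2 (1 at the natural logarithm) and 8 lower in place of 22, and the arms against each other 5 higher in place of 11, with 1, 1 and 2 lower in place of 5 at the 3 thresholds.

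Leaving out 1 replicate at a time gave 3 to 5 lower calls for *Elk1*-/- *Elk4*-/- (3 without WT replicate 6 or mutant replicate 2 or 3), 2 to 5 higher calls for the *Nfkb1* mutant (4 without WT replicate 4 or mutant replicate 3, 5 without WT replicate 6 or mutant replicate 4), 0 to 1 higher for PD0325901 (1 without WT replicate 4 or 6), 0 to 1 higher for DMSO (0 without WT replicate 8 or any DMSO replicate) and 1 to 2 larger responses (1 without WT replicate 7 or *Elk1*-/- *Elk4*-/- replicate 2). No filter on low values gave 3 lower calls for *Elk1*-/- *Elk4*-/-. With the medians of the libraries made equal DMSO had 0 calls. With the spread of the compared groups alone, or with PD0325901 replicates 1 to 3 alone, PD0325901 had 2 lower calls. The cause of these changes was not tested.

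With the replicate block of arm and number (estimated correlation 0.361 in the first fit and 0.318 in the second), the higher calls numbered 6 for the *Nfkb1* mutant, in place of 2, and 1 for PD0325901, in place of 0. *Adora2a* in *Elk1*-/- *Elk4*-/- BMDMs at 2 h did not pass under this replicate block (-0.42, adjusted p = 0.0509), nor did *Adora2a* between the *Elk1*-/- *Elk4*-/- and *Map3k8* mutants (adjusted p = 0.0507), and 9 other differences newly passed. Across arms the samples share only a number (median correlation of deviations -0.06, over 0.1 in 4 of 27 pairs). For the *Map3k8* mutant the shared numbers are 4 to 6, and the WT and mutant libraries with these numbers lie in different replicate sets. Their correlations ran from -0.45 to -0.06, so pairing them by number does not separate genotype from set. A replicate block by number across arms, over the libraries with shared numbers only, gave 1 higher call for the *Map3k8* mutant and 1 for PD0325901, in place of 0 each. It turned the sign of *Gpr84* at 0.5 h in the *Map3k8* mutant (0.065, adjusted p = 0.733) and with PD0325901 (0.090, adjusted p = 0.163), and of *Fpr1* at 0.5 h with PD0325901 (0.23, adjusted p = 0.0211). Under it *Hcar2* with PD0325901 at 1 h passed as lower (-0.79, adjusted p = 0.0073), as did *Adora2a* with PD0325901 at 1 h (-0.35, adjusted p = 0.0445) and in the *Map3k8* mutant at 1 h (-0.51, adjusted p = 0.0452) and 2 h (-0.59, adjusted p = 0.0128), *Fpr2* in the *Map3k8* mutant at 1 h (-0.50, adjusted p = 0.0151) and *Adora2b* in the *Nfkb1* mutant without LPS (-0.18, adjusted p = 0.0449). *Adora2b* at 0.5 h in the *Map3k8* mutant passed as higher (0.50, adjusted p = 0.0475). Calls lost under it were *Adora2b* (-0.32, adjusted p = 0.0687) and *Fpr1* (-0.28, adjusted p = 0.253) in the *Map3k8* mutant at 1 h, *Adora2b* at 0.5 h (-0.075) and *Gpr84* at 1 h (-0.40, adjusted p = 0.0545) in the *Nfkb1* mutant and *Adora2b* at 0.5 h with PD0325901 (-0.13, adjusted p = 0.0607). Within the first replicate set *Adora2a* at 2 h in the *Map3k8* mutant was 0.32 (adjusted p = 0.0365), which made 1 higher call. Within the second, against a single WT library, it was -0.26. The cause was not tested.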
